A study of Caenorhabditis elegans with 2 samples.

Results

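Intergenic peaks of the transcription factor CEH-34 are regions of the nematode genome where the protein was recovered by chromatin immunoprecipitation followed by sequencing (ChIP-seq) away from coding genes and their promoters. A peak of the thresholded list was taken when its summit lay on an autosome, outside every protein-coding gene body, not within 1000 bp upstream of the 5′ end of a coding transcript, and more than 200 bp from any tRNA, snRNA or snoRNA gene. The rule uses position alone. It left 444 of the 2508 thresholded peaks, or 444 of the 1942 that lie on autosomes. The other 1498 autosomal peaks were 941 in promoters, 380 in gene bodies and 177 near structural RNA genes.

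The chromatin came from whole hermaphrodite late embryos of Caenorhabditis elegans strain OP524, genotype unc-119(tm4063) III; wgIs524, collected 3.5 hours after the cultures were synchronised by bleaching eggs. The integrated transgene wgIs524 makes CEH-34 with GFP and FLAG tags at its C-terminus, and the labels name no deletion of the endogenous gene. DNA was sheared by sonication and precipitated with an antibody against GFP. There were 2 biological replicates from separate biosamples, 1 group and no second condition. Since whole animals were used, strong occupancy in few cells and weak occupancy in many cells cannot be told apart, and no marker of cell type can be checked in a peak list. The replicates had 21725 and 23509 candidate peaks, in replicate 1 and replicate 2, and the list called on both together had 29417. With 1 group, peaks are not replicates of a condition, so shares below carry 95% Wilson intervals, which cover counting error only, and no test between sets of peaks was made.

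CEH-34 belongs to the sine oculis family of homeodomain proteins, which act with transcriptional cofactors of the Eyes absent family. In C. elegans CEH-34 is known for specifying neurons of the pharynx, the feeding organ. Sites for proteins of this family commonly hold the core TGATAC, here called the sine oculis core. Genes of this nematode are closely spaced, and most known regulatory elements lie just upstream of a gene.

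The strongest intergenic peaks lay next to genes of varied function, and a few letters around their summits show the sequence features described further on. Each peak is named by its left and right neighbouring coding genes. The 101 bp windows centred on the summits of the 6 strongest on chromosomes II to V are printed from the plus strand of the RefSeq sequence of WBcel235, the assembly with ce11 coordinates, with TGATAC or its reverse complement in capitals.
mec-12/C44B11.4, chrIII:3140345-3140445: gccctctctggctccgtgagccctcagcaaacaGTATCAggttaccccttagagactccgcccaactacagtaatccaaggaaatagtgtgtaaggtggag
cutl-22/cmd-1, chrV:1151441-1151541: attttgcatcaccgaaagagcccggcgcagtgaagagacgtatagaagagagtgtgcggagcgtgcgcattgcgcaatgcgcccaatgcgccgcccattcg
alh-3/hrg-5, chrIV:11026130-11026230: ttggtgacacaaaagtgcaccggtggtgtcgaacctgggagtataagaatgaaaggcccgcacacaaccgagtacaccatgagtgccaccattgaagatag
sup-26/R10E4.3, chrIII:4282235-4282335: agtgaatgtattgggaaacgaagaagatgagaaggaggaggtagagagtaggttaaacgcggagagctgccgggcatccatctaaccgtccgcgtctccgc
T02E9.6/T02E9.5, chrV:11336169-11336269: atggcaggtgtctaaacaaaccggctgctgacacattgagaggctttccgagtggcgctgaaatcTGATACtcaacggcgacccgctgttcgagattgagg
cam-1/csa-1, chrII:9314883-9314983: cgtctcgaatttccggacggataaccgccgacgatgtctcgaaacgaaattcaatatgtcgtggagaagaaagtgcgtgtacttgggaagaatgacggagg
Of these windows 2 hold the sine oculis core, and the repeat GAGAGA, which many other intergenic peaks hold, is in none of them. That absence is limited to the windows printed here. The peaks next to kpc-1 and mage-1, which are not printed, are among the 6 strongest intergenic peaks of all autosomes, and both hold the repeat.

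The repeat is shown by the windows of the 4 strongest intergenic peaks on the same chromosomes that hold it, chosen after their values were seen, with GAGAGA or its reverse complement TCTCTC in capitals.
irld-55/Y37A1B.7, chrIV:14033838-14033938: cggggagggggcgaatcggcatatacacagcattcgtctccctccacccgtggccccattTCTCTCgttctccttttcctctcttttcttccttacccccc
gpb-1/F44E5.4, chrII:11749884-11749984: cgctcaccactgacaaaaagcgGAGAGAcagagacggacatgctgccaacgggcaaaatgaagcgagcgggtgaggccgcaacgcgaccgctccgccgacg
mtm-3/xbx-5, chrIII:3801480-3801580: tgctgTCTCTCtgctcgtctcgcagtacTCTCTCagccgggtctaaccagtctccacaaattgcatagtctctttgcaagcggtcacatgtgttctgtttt
tig-3/rga-9, chrII:15263264-15263364: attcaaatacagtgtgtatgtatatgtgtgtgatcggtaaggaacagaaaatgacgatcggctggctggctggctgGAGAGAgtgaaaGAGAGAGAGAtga
In these windows the repeat ranges from a single copy to several copies in a row.

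In strength, the intergenic peaks covered much of the range of the thresholded list but not its top. Signal is the value the lists give each peak, on a scale set per list, and its exact meaning is not given in sources used here. Its median was 109 among intergenic peaks (76.5 to 466), against 116 among the other autosomal peaks, whose highest value was 1522. A signal above 200 was reached by 40 intergenic peaks (9.01%, 6.69% to 12.04%), against 218 of the other autosomal peaks (14.6%, 12.9% to 16.4%). Intergenic peaks of chromosome X, which the rule leaves out, had a median of 109. By distance to the nearest facing 5′ end, the median was 107 for intergenic peaks at 1 to 2 kb, 114 at 2 to 5 kb, 108 at 5 to 10 kb and 124 beyond 10 kb.

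**Figure D1:**
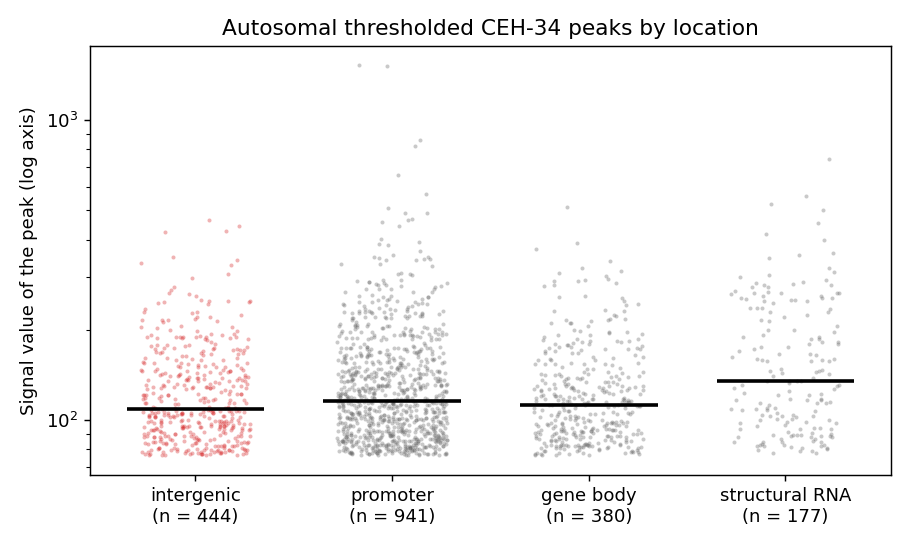
Signal value of each autosomal thresholded peak (log axis) by location, with 1 point per peak and a bar at each median. The 444 intergenic peaks have a median of 109, and none of them exceeds 466, while promoter peaks reach 1522.

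The strongest intergenic peak lay on chromosome I between F11A6.16 and kpc-1, which encodes a proprotein convertase of the furin type. Its signal was 466 in the pooled list, 221 in replicate 1 and 244 in replicate 2, and its summit was 8480 bp upstream of kpc-1. Next came the peak 1161 bp upstream of mec-12, an alpha-tubulin gene of touch receptor neurons, with 443 in the pooled list, 239 in replicate 1 and 204 in replicate 2. Both were among the strongest intergenic peaks of each replicate. The peak between the cuticlin-like gene cutl-22 and the calmodulin gene cmd-1 had 426 in the pooled list, 192 in replicate 1 and 236 in replicate 2, and lay inside the long noncoding RNA gene linc-128. The peak between the convergent genes alh-3 and hrg-5 had 425 in the pooled list, 203 in replicate 1 and 229 in replicate 2. It lay 68 bp from the microRNA gene mir-51 and 310 bp past the 3′ end of alh-3, an aldehyde dehydrogenase gene.

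After these 4 there was a step down to 350. The peak next to the MAGE-family gene mage-1 had 350, with 163 in replicate 1 and 183 in replicate 2. The peak 2061 bp upstream of sup-26, an RNA-binding protein gene, had 342, with 147 in replicate 1 and 198 in replicate 2. Replicate 2 gave the higher value at both. The peak between T02E9.6 and T02E9.5 had 333, with 191 in replicate 1 and 142 in replicate 2. The peak 4629 bp upstream of cam-1, which encodes a receptor tyrosine kinase of the Ror family, had 330, with 169 in replicate 1 and 163 in replicate 2. At these it was replicate 1 that gave the higher value.

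The remaining peaks among the 20 strongest with a candidate in both replicates had signals from 248 to 308. Near genes of signalling and the cell surface they included the peak 1323 bp upstream of the G protein beta subunit gene gpb-1 (278), the peak between the contactin gene rig-6 and lact-5 (265) and the peak between pop-1, the TCF factor of Wnt signalling, and the calcium channel beta subunit gene ccb-2 (251). The peak 1616 bp upstream of unc-70, the beta-spectrin gene, had 249, and so did the peak 1271 bp upstream of the bromodomain gene bet-1. The others lay between irld-55 and Y37A1B.7 (308), F54F12.1 and Y39E4B.6 (297), sam-10 and mrpl-20 (272), the myotubularin gene mtm-3 and xbx-5 (264), tig-3 and the RhoGAP gene rga-9 (260), F29B9.12 and kin-36 (249), and T23F11.4 and T23F11.11 (248). In replicate 1 the 20 peaks had signals from 103 to 239 and in replicate 2 from 117 to 244.

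A candidate summit within 100 bp was present in both replicates at 424 of the 444 intergenic peaks (95.5%, 93.1% to 97.1%). All autosomal thresholded peaks gave 95.5%, so the share is that of the list as a whole, which was called on both replicates together. A further 8 had a candidate in replicate 1 alone and 12 in replicate 2 alone, and each of the 444 had one in at least 1 replicate. The strongest of these 20 lay in linc-91 between chd-7 and W09C3.4, with 222 in the pooled list and 121 in replicate 2. Over the 424 peaks the signals of the replicates correlated with Pearson's r of 0.602 on log2 values and Spearman's rho of 0.568. Among other autosomal peaks r was 0.734 over 1431 peaks. By location, r was 0.633 in gene bodies (rho 0.561), 0.738 in promoters (rho 0.660) and 0.817 near structural RNA genes (rho 0.816). Intergenic peaks of chromosome X had r of 0.722 and rho of 0.598. These are correlations across peaks of the same 2 libraries, given as a description. The median ratio of replicate 2 to replicate 1 was 1.15 among intergenic peaks, 1.16 among those of chromosome X and 1.09 among other autosomal peaks. The SD of the log2 of this ratio differed less among sets than r did. It was 0.545 among intergenic peaks, 0.504 among those of chromosome X and 0.492 among other autosomal peaks. By location it was 0.513 in gene bodies, 0.486 in promoters and 0.468 near structural RNA genes.

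**Figure D2:**
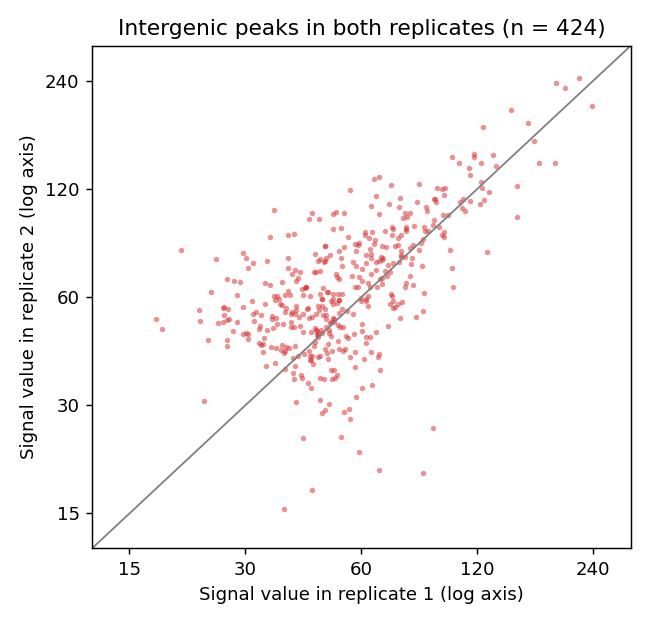
Signal value in replicate 1 and in replicate 2 (log axes) of the 424 intergenic peaks with a candidate in both, 1 point per peak, with the line of equal values. The strongest peaks lie close to the line, and weaker ones scatter more widely (Pearson's r of log2 values 0.602).

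The intergenic peaks were spread over all autosomes, with 98 on chromosome I, 73 on II, 97 on III, 94 on IV and 82 on V. The space the rule allows differs among chromosomes and came to 19.3 Mb, or 23.4% of the autosomes. Relative to that space, chromosome I held 34.9 intergenic peaks per Mb and III held 34.8, while II held 20.4, IV held 18.8 and V held 15.9. All thresholded peaks, counted per Mb of whole chromosome length, were also densest on III (30.7) and I (29.7). They were at 23.2 on II, 21.1 on IV and 16.6 on V. On every autosome the central 50% was denser than the arms. Over all autosomes the centres held 30.4 per Mb and the arms 16.5 per Mb.

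The centres held 273 of the intergenic peaks (61.5%, 56.9% to 65.9%), and of all autosomal thresholded peaks 62.0% lay there. Of the 4560 intergenic candidates below the threshold, 44.8% lay in centres (43.4% to 46.3%). Of all intergenic candidates of the pooled list, 8.87% were in the thresholded list, against 8.09% of all autosomal candidates. The candidates below the threshold had a median signal of 27.0.

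**Figure D3:**
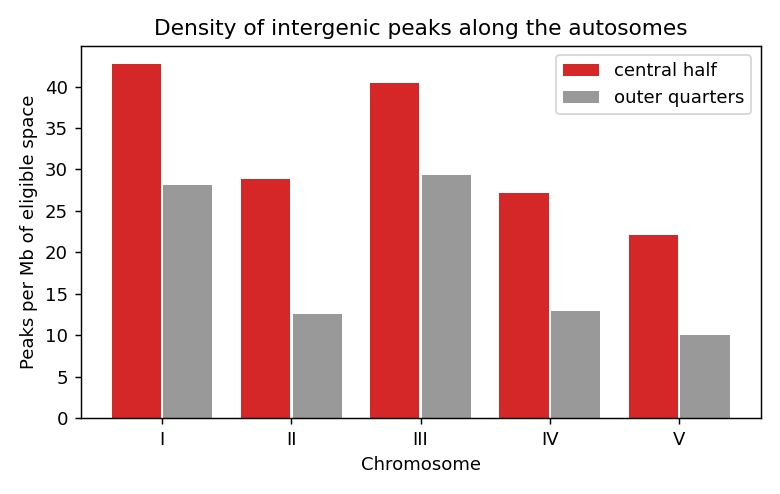
Number of intergenic peaks per Mb of the space the rule allows, for the central 50% (red) and the arms (grey) of each autosome. The centre is denser than the arms on all 5 autosomes, with chromosomes I and III the densest.

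Most intergenic peaks lay within 5 kb upstream of a gene start. The nearest facing 5′ end was 1 to 2 kb away for 166, 2 to 5 kb for 188, 5 to 10 kb for 70 and over 10 kb for 20, with a median of 2616 bp. The neighbouring genes pointed the same way at 256 (57.7%), away from each other at 163 (36.7%) and towards each other at 25 (5.63%). The gaps that held them had a median length of 6484 bp. For 174 (39.2%, 34.8% to 43.8%) the nearest end of a coding gene was a 3′ end, and 76 lay within 1000 bp of that 3′ end. The share among all autosomal thresholded peaks was 33.3%, but that set includes promoter peaks and is not a like set. The rule leaves out summits close upstream of a 5′ end, so the share depends on its limit. It was 35.2% with a promoter distance of 500 bp and 50.7% with 2000 bp. The 3 farthest from any coding gene lay 11865 bp (signal 92.5, between M03D4.4 and C11D2.3), 11321 bp (105, between irld-18 and dmd-6) and 9872 bp away (198, between F11A6.16 and kpc-1).

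Some gaps held several intergenic peaks. The 444 fell into 364 gaps, and 57 gaps with at least 2 held 137 of them. The gap between snt-1, the synaptotagmin gene, and egl-27, a gene for a protein of the MTA family, held 5, with signals of 170, 119, 117, 95.6 and 84.0 over 7061 bp. In 4 gaps there were 4, those between F11A6.16 and kpc-1 (88.7 to 466), K08F11.1 and fbxb-78 (140 to 215), sri-5 and ztf-6 (82.5 to 161), and K02B2.6 and the ankyrin gene unc-44 (88.9 to 129). Peaks of 1 gap share their neighbours and are not independent of each other, and 4 intervals of the list held 2 intergenic summits. Other intervals overlap each other, and 423 intergenic peaks remained when overlapping intervals were merged. Several gaps with 2 peaks held summits close together, such as those between sam-10 and mrpl-20, 205 bp apart. Counts of peaks per gap thus include neighbouring summits of 1 stretch.

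At the edges of the rule, the members nearest the promoter limit lay 1006 bp upstream of a 5′ end (152, between ech-2 and let-92), 1009 bp (91.1, between egl-3 and cul-5) and 1014 bp (98.1, between K05C4.9 and K05C4.8). The promoter peaks just past it lay at 988 bp (201, between cysl-2 and dhs-8), 987 bp (110, between idpp-15 and ZC21.10) and 971 bp (102, between mstr-1 and nars-1). The intergenic peaks nearest a structural RNA gene lay 344 bp (161), 592 bp (122) and 620 bp (95.8) from it, between sri-5 and ztf-6, cup-15 and mel-11, and F53F8.6 and Y44A6C.1. Peaks left out by that limit alone lay at 184 bp (282, between C26C6.9 and goa-1), 143 bp (108, between irld-18 and dmd-6) and 109 bp (87.8, between Y65A5A.24 and Y65A5A.1).

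The summits were islands of higher GC content. The 101 bp around the summit of an intergenic peak had a mean GC content of 48.0% ± 7.90 (SD, n = 444 peaks), against 34.6% in equally wide windows 300 bp away on the left and 34.4% in those on the right. Other autosomal peaks had 48.8% at the summit and 36.9% and 36.3% in the flanks. Intergenic candidates below the threshold had 39.4% at the summit. The summit base lay in soft-masked sequence, the reference's mark for repeats, at 73 intergenic peaks (16.4%, 13.3% to 20.2%), at 15.1% of all autosomal thresholded peaks and at 30.7% of candidates below the threshold. The 31 bp at the summit occurred more than once in the genome at 9 intergenic peaks (2.03%), against 3.35% of all autosomal thresholded peaks.

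The repeat GAGAGA was the 6-letter word with the largest excess at summits over flanks. On either strand it lay within 50 bp of the summit at 184 intergenic peaks (41.4%, 37.0% to 46.1%), and 29.4% of all autosomal thresholded peaks held it. The flanks held it at 8.78% on the left and 6.53% on the right. Among the other autosomal peaks 386 held it (25.8%, 23.6% to 28.0%), with 31.6% in gene bodies (27.1% to 36.4%), 26.5% in promoters and 9.60% near structural RNA genes. Intergenic peaks of chromosome X had 23.8% (17.6% to 31.3%) and intergenic candidates below the threshold 12.9%. When the same number of strongest candidates was taken from replicate 1 alone, 37.4% of its 423 intergenic peaks held the repeat, and from replicate 2 alone 41.4% of 447.

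The share with the repeat was not even within the intergenic peaks. It was 49.0% on chromosome I (39.3% to 58.7%), 42.5% on II, 43.3% on III, 44.7% on IV and 25.6% on V (17.4% to 36.0%). In the arms it was 49.7% (42.3% to 57.1%) and in the centres 36.3% (30.8% to 42.1%). The stronger 222 intergenic peaks held it at 47.3% (40.8% to 53.9%) and the weaker 222 at 35.6% (29.6% to 42.1%), with overlapping intervals. The same splits of other autosomal peaks are not given here, so these differences are not shown to be particular to intergenic peaks. Peaks with the repeat had a median signal of 118, and those without it 106. The 5 strongest with it were those next to kpc-1 (466), mage-1 (350), Y37A1B.7 (308), gpb-1 (278) and mtm-3 (264).

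Longer runs of alternating G and A were uncommon. Runs were searched up to 100 bp from the summit, a wider window than the 50 bp used for GAGAGA above. In that wider window GAGAGA itself was at 61.0% of intergenic peaks. A run of at least 12 bp lay there at 45 intergenic peaks (10.1%), against 73 of the other autosomal peaks (4.87%). The longest among intergenic peaks was 53 bp. Among those others, gene body peaks came close to the intergenic share, with such a run at 33 of 380 (8.68%), while promoter peaks had it at 3.93%. Runs of at least 6 bp were at 64.6% of intergenic peaks and 60.5% of gene body peaks. Words that overlap the repeat followed it, such as AGAGAC at 112 intergenic peaks (25.2%), against 17.2% of the other autosomal peaks. Next to these came CGTCTC, at 103 intergenic peaks (23.2%), against 17.8% of the other autosomal peaks. The joined form in which GAGACG overlaps CGCAGA by 2 letters, chosen after its value was seen, was at 43 intergenic peaks (9.68%, 7.27% to 12.8%), and 6.90% of all autosomal thresholded peaks held it. The flanks held that form at 6 intergenic peaks on the left and 2 on the right. Words rich in A and T were scarcer at summits, such as AAAAAT at 10.6% of summits and 52.4% of flanks.

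**Figure D4:**
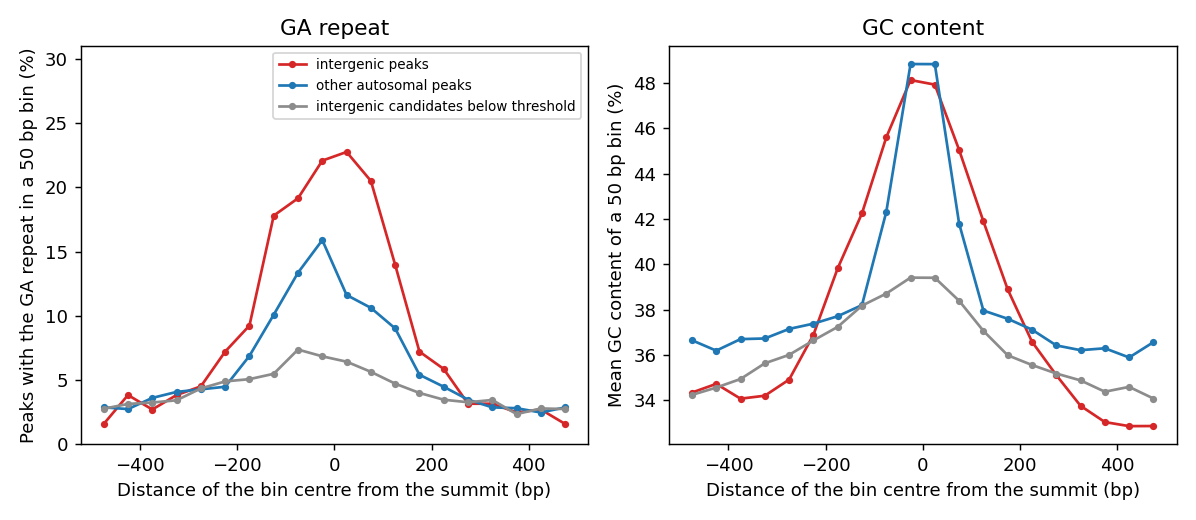
Share of peaks with the GA repeat (left) and mean GC content (right) in 50 bp bins around the summit, for intergenic peaks, other autosomal thresholded peaks and intergenic candidates below the threshold. Both rise towards the summit, and in the bins left and right of it the repeat is in 22.1% and 22.7% of intergenic peaks, against 15.9% and 11.6% of the other autosomal peaks.

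The sine oculis core TGATAC was rare at the summits. It was found on either strand within 50 bp at 23 intergenic peaks (5.18%, 3.48% to 7.65%), and 3.24% of all autosomal thresholded peaks held it. In the flanks of the intergenic peaks it was at 20 on the left and 9 on the right. Among other autosomal peaks 40 held it (2.67%, 1.97% to 3.62%), and among intergenic candidates below the threshold 2.59%. The interval of the intergenic peaks overlaps that of the other autosomal peaks. With replicate 1 alone the share was 6.38%, and with replicate 2 alone 5.59%. The core and GAGAGA were found together at 4 intergenic peaks.

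In front of the core, 3 positions held mostly 1 letter at intergenic summits. Counting back from the first T of the core, on the strand that reads TGATAC, position -6 was G at 18 of the 24 sites whose window reached so far. Position -4 was A at 19 of 25 sites and position -3 was A at 20 of 25. At summits of other autosomal peaks the same letters were at 22 of 42, 22 of 42 and 25 of 43 sites, and at candidates below the threshold at 29 of 117, 51 of 119 and 51 of 119. The longer form with all 3 letters, which was chosen from the intergenic sites after they were seen, is shown with those letters and the core in capitals for each site on chromosomes II to V, from 10 bases before the core to 10 after it.
mec-12/C44B11.4, chrIII:3140368-3140393, minus strand: agggGtAAccTGATACtgtttgctga
T02E9.6/T02E9.5, chrV:11336224-11336249, plus strand: cgctGaAAtcTGATACtcaacggcga
sbp-1/plr-1, chrIII:11446970-11446995, plus strand: ttgtGtAAccTGATACttgcatagct
srg-55/C30G7.2, chrV:14934101-14934126, plus strand: attgGtAAcgTGATACacttgaatac
cnnm-1/Y116A8B.1, chrIV:17209437-17209462, minus strand: ttcgGtAAtaTGATACgacaaggact
W04D12.1/ddx-23, chrIII:5842906-5842931, minus strand: cgacGtAAcaTGATACctatctggac
F13H10.1/F13H10.6, chrIV:11006541-11006566, plus strand: aattGaAAtcTGATACttacacatat
F13B12.6/F13B12.1, chrIV:10419557-10419582, plus strand: ccttGaAAttTGATACgtggcaatga
madd-2/C39F7.1, chrV:1244263-1244288, plus strand: taaaGtAAcaTGATACgtggcaaacc
Y75B8A.6/Y75B8A.7, chrIII:12144385-12144410, minus strand: ttttGtAAtaTGATACcaatattctc
fbxb-76/tag-89, chrIV:11391591-11391616, minus strand: cttgGaAAtcTGATACgtatttcaaa
F36D4.6/Y54B9A.1, chrV:9435669-9435694, plus strand: tattGaAAcaTGATACttgtggccgc
sly-1/unc-49, chrIII:10519708-10519733, plus strand: aagaGtAAtcTGATACaggcgtcgtg
gei-13/C15H7.3, chrIII:9638295-9638320, plus strand: gactGcAAacTGATACtcgttaccgc
In all but 1 of the 14 the letter at position -5 is T or A.

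Because the 3 letters were picked from these intergenic sites, the choice itself raises the counts of the longer form at intergenic peaks, and the values that follow are a description that would need a motif from other data to check. The longer form was at 16 intergenic peaks (3.60%, 2.23% to 5.77%), which is 16 of the 23 with the core, and 1.60% of all autosomal thresholded peaks held it. In the flanks of the intergenic peaks it was found once on the left and not on the right. Among other autosomal peaks it was at 15 (1.00%, 0.608% to 1.65%), with 10 of 380 in gene bodies, 5 of 941 in promoters and 0 of 177 near structural RNA genes. Peaks of chromosome X that meet the positional rule held it at 3 of 147, and intergenic candidates below the threshold at 13 of 4560 (0.285%). The lists of replicate 1 alone and of replicate 2 alone each gave 16 intergenic peaks with it. In all the space the rule allows, the longer form occurs 262 times, of which 16 sites (6.11%) lay in windows of intergenic peaks, 14 in windows of candidates below the threshold and 232 in neither. The core alone occurs there 6578 times, with 25 sites (0.380%) in windows of intergenic peaks.

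The 16 intergenic peaks with the longer form all had candidates in both replicates, as did 95.5% of all autosomal thresholded peaks. For so few peaks this is close to the share of the list. Their signals ran from 81.1 to 443 with a median of 138. The strongest were those next to mec-12 (443), T02E9.6 (333) and pop-1 (251). The peak between sbp-1, the gene of the sterol regulatory element binding protein, and plr-1 had 178, with 103 in replicate 1 and 72.4 in replicate 2. The peak between the chemoreceptor gene srg-55 and C30G7.2 had 173, with 63.7 in replicate 1 and 108 in replicate 2. At the sites next to mec-12, sbp-1 and vha-16 the core overlaps the MEF3-type site TCAGGTT, another sequence known for this family, on the opposite strand. There TCAGGTT covers the A at positions -4 and -3, so the 2 matches are not separate sites. TCAGGTT was at 7 intergenic summits (1.58%, 0.766% to 3.22%), 3 of them with the core, and 1.39% of all autosomal thresholded peaks held it.

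Other sequences searched were found at few summits. The E-box CAGCTG was at 17 intergenic summits (3.83%; all autosomal thresholded peaks 3.86%), TGTTTGC, a forkhead-type site, at 11 (2.48%; 4.58%), GATAA, the core for GATA factors, at 46 (10.4%; 9.73%) and TGTTTCA at 12 (2.70%; 1.75%). GATAA was less frequent at the summits than in the flanks, which held it at 105 intergenic peaks on the left and 84 on the right. GTTCGAA, part of the internal promoter of tRNA genes, was at only 2 intergenic summits (0.450%; 1.03%), whose windows are given with that word in capitals because they lie outside annotated tRNA genes.
F19C7.8/F29B9.8, chrIV:4646523-4646623: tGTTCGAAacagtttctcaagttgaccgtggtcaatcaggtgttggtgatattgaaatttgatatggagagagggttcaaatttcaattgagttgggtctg
W05B10.3/W05B10.4, chrV:12664517-12664617: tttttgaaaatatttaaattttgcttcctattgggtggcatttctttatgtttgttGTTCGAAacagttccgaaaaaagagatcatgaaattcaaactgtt
Their signals were 168 and 85.9. A match is a match of letters and not a measured site.

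Noncoding genes other than the structural RNAs lay close to many intergenic peaks. A noncoding gene or pseudogene was within 200 bp of 132 summits (29.7%, 25.7% to 34.1%), as it was for 23.3% of all autosomal thresholded peaks and for 22.3% of intergenic candidates below the threshold (21.2% to 23.6%). Genes of the annotation's general class ncRNA made up most of these, at 109 intergenic summits (24.5%, 20.8% to 28.8%), against 21.0% of all autosomal thresholded peaks and 9.74% of candidates below the threshold (8.91% to 10.6%). Of the 132, 108 lay in chromosome centres (81.8%, 74.4% to 87.5%), against 165 of the 312 others (52.9%, 47.3% to 58.4%). Of all autosomal thresholded peaks 62.0% lay in centres. How annotated noncoding genes, or other peaks beside them, divide between centres and arms is not given here. The split is therefore not shown to be particular to intergenic peaks.

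MicroRNA genes were few, and the peaks beside them all had signals above the median of intergenic peaks. They were within 200 bp of 6 intergenic summits, or 1.35%, against 0.515% of all autosomal thresholded peaks. The peak 68 bp from mir-51 had 425, and the one 161 bp from mir-53 in the same gap had 117, with 45.3 in replicate 1 and 70.4 in replicate 2. Close to mir-52 there were 2 summits, at 120 bp with 308 and at 4 bp with 187. The second of these had 92.2 in replicate 1 and 26.0 in replicate 2, and the replicates differed more there than at the other microRNA genes. These 3 genes belong to the mir-51 family. Genes of the ncRNA class lay there too, with the summit of 425 inside F36H1.17 and the summit of 308 inside Y37A1B.330. The peak 153 bp from mir-80 had 153, with 64.0 in replicate 1 and 91.3 in replicate 2, and the peak inside mir-8209 had 116. These genes were found by annotation type and, like those of long noncoding RNAs, are named here after their values were seen.

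Long noncoding RNA genes of the lincRNA class held 12 intergenic summits, all inside the gene (2.70%, 1.55% to 4.66%; all autosomal thresholded peaks 0.927%). They were led by linc-128 with 426 and linc-91 with 234 and 222. Pseudogenes were within 200 bp of 8 (1.80%; 0.669%), piRNA genes within 200 bp of 7 (1.58%; 0.978%) and an antisense RNA gene within 200 bp of 1 (0.225%; 0.257%). The rule leaves out gene bodies of coding genes, where some noncoding genes lie, so these shares are not those of a like space.

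The neighbours of the intergenic peaks were compared with lists of genes, by counting the coding genes that lie directly to the left or right of at least 1 intergenic peak. This was so for 716 of 17242 autosomal coding genes, or 4.15%. Genes with long flanking gaps have more room for such a peak, and how far this bears on the counts was not tested. Of the list of sine oculis family genes and eya-1, 2 of 5 were neighbours. The gene ceh-32, a homeodomain factor of the same family, had a peak of 168 past its 3′ end at 578 bp, with 72.7 in replicate 1 and 93.0 in replicate 2.

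The other was eya-1, the Eyes absent gene, whose product is the known partner of sine oculis proteins. An intergenic peak lay 1209 bp upstream of its 5′ end and 466 bp from its other neighbour clec-114, with 224 in the pooled list, 110 in replicate 1 and 113 in replicate 2. It was the strongest of the 3 thresholded peaks at this gene. A gene body peak 1898 bp inside had 168, and the promoter peak 6 bp upstream had 79.7. The other candidates within 10 kb of the 5′ end, 10 in number, had 21.0 to 60.3. Neither GAGAGA nor the core lay within 50 bp of the intergenic summit. At ceh-34 itself there was no candidate within 10 kb. The transgene adds coding sequence of this gene, and how that bears on peak calling there was not tested. A missing candidate at this locus is thus not a measure of missing binding.

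**Figure D5:**
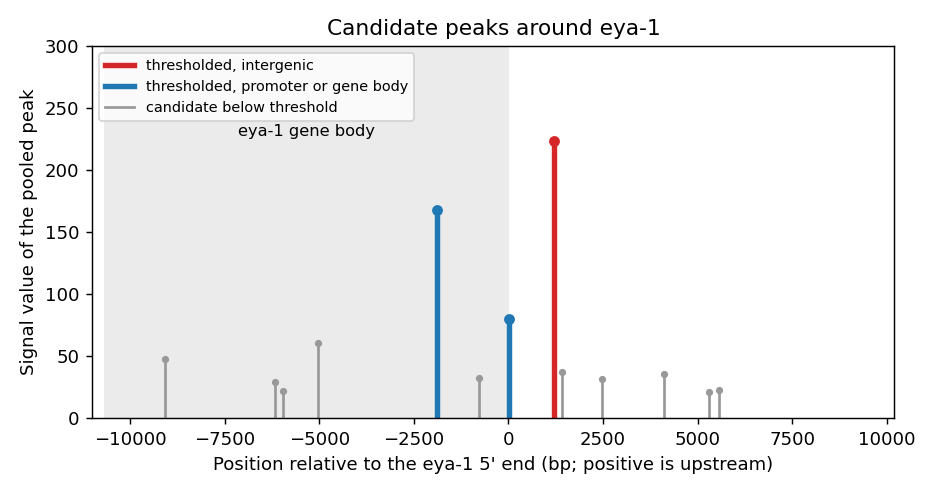
Signal value of pooled candidate peaks around eya-1 by position relative to the gene's 5′ end (positive is upstream), with the gene body shaded. The intergenic peak (red, 224) is higher than the thresholded gene body (168) and promoter (79.7) peaks in blue, and candidates below the threshold (grey) stay at or under 60.3.

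Genes used across the nervous system were among the neighbours. Of 25 autosomal pan-neuronal genes 8 were neighbours (32.0%, 17.2% to 51.6%). They were snt-1 (170 for its strongest peak), the proprotein convertase gene egl-3 (142), the ankyrin gene unc-44 (129, with a candidate in replicate 2 alone), unc-31, a gene of dense core vesicle release (128), the synaptobrevin gene snb-1 (106), the kinesin gene unc-104 (97.9), the CRMP gene unc-33 (93.5) and syd-1, a gene of presynaptic assembly (87.2). The unc-44 peak of 129 lay 1372 bp from the gene. A neighbouring intergenic peak of 105, at 1170 bp, had 71.0 in replicate 1 and 57.6 in replicate 2. The peaks beside snt-1 lay 10457 bp or more past its 3′ end, nearer to egl-27, while those beside the other 7 faced the 5′ end. Of 17 autosomal genes of pharyngeal neuron identity none was a neighbour, with an interval of up to 18.4% that holds the 4.15% of all autosomal coding genes. For a list of that size, 0 is close to what that share gives.

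Among genes of the pharynx as an organ 2 of 13 were neighbours. The gene pha-4, the FoxA factor that specifies the organ, had 4 intergenic peaks. Upstream of it lay peaks of 190 (97.5 in replicate 1 and 89.1 in replicate 2) and 94.3, at 6101 and 3807 bp, and past its 3′ end peaks of 136 and 90.8, at 3221 and 1664 bp. The homeobox gene ceh-24, known in pharyngeal muscle, had a peak of 177 at 4577 bp upstream, with 65.4 in replicate 1 and 114 in replicate 2. Body wall muscle genes were neighbours in 5 of 19 cases (26.3%, 11.8% to 48.8%). These were the perlecan gene unc-52 (138), the integrin-linked kinase gene pat-4 (129), the MyoD-type factor hlh-1 (104), the integrin gene pat-2 (88.9) and the myosin heavy chain gene unc-54 (85.1), the last with a candidate in replicate 1 alone.

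Developmental regulators were neighbours at 6 of 54 bHLH, Sox, GATA, forkhead and T-box genes, led by pha-4 (190), egl-27 (170), hlh-1 (104) and hlh-2 (100.3). Homeobox genes named ceh had 5 of 45, with ceh-48 (185), ceh-24 (177), ceh-32 (168) and ceh-45 (141) ahead. Wnt and Notch genes had 2 of 17, namely pop-1 (251, at 10823 bp upstream) and the beta-catenin gene wrm-1 (88.0). None of the 6 Hox genes was a neighbour.

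Large gene families had shares at or under the 4.15% of all autosomal coding genes. Nuclear hormone receptor genes had 10 of 246 (4.07%, 2.22% to 7.32%), led by nhr-258 (246), nhr-4 (172), nhr-31 (162) and nhr-20 (147). Serpentine chemoreceptor genes had 8 of 1175 (0.681%, 0.345% to 1.34%), led by srg-55 (173), srr-9 (171), sri-5 (161) and srsx-9 (151). Collagen genes had 3 of 129, col-83 (194), col-50 (147) and col-61 (100.3). Ribosomal protein genes had 2 of 79, rpl-21 (103) and rpl-35 (97.7). Peptide genes had 2 of 106, nlp-40 (107) and nlp-46 (83.7), and histone genes 1 of 76, hil-7 (130).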

How the data were processed

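ChIP-seq was measured in 2 biological replicates of 1 group. Per the file lists, the authors called candidate peaks and background on each replicate and on both together, each with a control alignment, and derived a thresholded list by the irreproducible discovery rate, which scores how well peak ranks repeat. The deposited lists give each peak a signal value, on a scale set per list, and the −log10 of a q-value, which ran from 2.28 to 2.95 among nuclear thresholded peaks and was not used further. The aligner and peak caller used are not given in sources used here. Read depth was not analysed here, so the counting error of a single signal value is unknown, and the control experiment named in the labels was not used here. Only ce11 lists were used.

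Summits were placed on Ensembl release 115 gene models of WBcel235, and sequence was read from the RefSeq sequence of that assembly. Both strands were searched for motifs, up to 50 bp from the summit and from points 300 bp to each side. Runs of alternating G and A were searched up to 100 bp from the summit. A candidate was shared when its summit lay within 100 bp. Repeats are the soft-masked letters of the reference. The space the rule allows was counted base by base. Scripts used Python 3.11.15, pandas 2.3.3, numpy 2.4.6 and SciPy 1.17.1, with matplotlib 3.10.9 for plots, and the rule and the motif search were tested on simulated data. Wilson intervals are at 95%.

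The members and gene lists were chosen with earlier results of these data known. Of the lists, 1 symbol, ceh-35, was not matched. Named were the 20 strongest members with a candidate in both replicates, the 5 strongest with TGATAC and with GAGAGA, up to 4 strongest next to a gene of each list, the 3 strongest of each autosome, the 3 nearest each limit and the 3 farthest from a coding gene. Other named genes were chosen after their values were seen. Alternatives moved the positional limits, the summit, the window, the gene models and the list.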

Additional observations from a re-analysis of the deposited data

How the results depend on the processing

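No paired analysis was possible because there is 1 group and no test. Under the other settings, 92 of the recomputed values stayed within 1.5 times the reported count or within the 95% interval of the reported share, median or mean, and 17 did not. The choice of annotation mattered little, with 461 intergenic peaks under RefSeq gene models, 437 of them shared with the 444. A promoter distance of 2000 bp left 278, of which 50.7% had a 3′ end nearest, and a distance of 500 bp gave 571. The stronger 50% of the list left 205, with a median signal of 154, GAGAGA at 47.8% and a noncoding gene or pseudogene within 200 bp at 36.6%. Its higher median follows from selecting by signal, and the cause of the other shifts was not tested. The share with a candidate in both replicates was 71.4% for summits within 50 bp, 99.8% within 200 bp and 100% for any overlap. With windows of 25 and 100 bp on each side, GAGAGA was at 23.0% and 61.0%, and with 100 bp TGATAC was at 8.11% and GC content was 46.7%. A noncoding gene or pseudogene was at 36.5% within 500 bp and at 18.2% when the summit had to lie inside it. Any soft-masked base in the window gave 57.0%, and the central 40% of the chromosome held 50.2%. With the strongest candidates of 1 replicate in place of the thresholded list, the lowest and highest values were 423 and 447 for the number of peaks, 37.4% and 41.4% for GAGAGA, 5.59% and 6.38% for TGATAC, 47.5% and 48.0% for GC content, 58.4% and 60.4% for centres, 36.9% and 43.5% for a 3′ end nearest, 16.8% and 17.4% for soft-masked summits, and 27.9% and 32.0% for a noncoding gene or pseudogene. The median signal and the share found in both replicates were not recomputed there, since each list has its own scale and lists 1 replicate. With 2 libraries, animal-to-animal variation cannot be judged, and small counts such as those of TGATAC have wide intervals.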
